A study of Glycine max with 30 samples.

Results

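Accessible chromatin regions (ACRs) that were listed around subjective dusk and unlisted around subjective dawn were examined in leaves of soybean. Members were chosen by the deposited merged ACR lists, as the union regions that overlapped the lists of both ZT8 and ZT12 and neither that of ZT20 nor that of ZT0, while ZT4 and ZT16 were left free. A union region is a stretch of the genome made by joining all overlapping or touching regions of the 6 merged lists. The rule gave 2221 members of 35922 union regions, 6.18% of all (95% Wilson interval 5.94 to 6.44%, counting error only). The opposite rule, listed at ZT20 and ZT0 and unlisted at ZT8 and ZT12, gave 456 regions (1.27%), which are called the mirror set here. There were 4.87 members for each region of the mirror set, and the merged lists that the rules read were longer at ZT8 (18559 regions) and ZT12 (21022) than at ZT20 (15405) and ZT0 (13675).

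The leaves were first trifoliate leaves of the wild-type cultivar Ws82 (Williams 82), raised in short days of 8 h light and 16 h dark and then held in constant light for 1 day before sampling. Every group therefore had the same genotype and the same free-running treatment. The groups differed in the time of harvest and, with it, in the hours already spent in constant light. These cannot be told apart. Leaves were taken every 4 h at 6 time points, ZT0, ZT4, ZT8, ZT12, ZT16 and ZT20, with 3 biological replicates (L, M and R) each, and the design text gives 3 plants for an independent experiment. In the light cycle that had set the clock, lights went off at ZT8, so that ZT8 and ZT12 lie at and after subjective dusk, and ZT20 and ZT0 before and at subjective dawn. No plant was in darkness at harvest. The study itself counts these harvests 24 h later, as ZT24 to ZT44. By that count ZT0 was the first harvest and ZT20 the last, so they do not lie around the same dawn. Another 12 samples, wild type and clock mutants labelled ZT24 and ZT36, were not analysed here.

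ATAC-seq (assay for transposase-accessible chromatin) uses a transposase that cuts DNA where it is not covered by nucleosomes, so the sequenced fragments pile up over promoters, enhancers and other sites that bind regulatory proteins. In plants the circadian clock is a loop of transcription factors. In Arabidopsis the morning factors CCA1 and LHY bind the evening element in the promoters of genes that peak around dusk, among them TOC1, GI and the evening complex members ELF3, ELF4 and LUX, and repress them at dawn. No gene, promoter or motif was assigned to any region here, because no annotation or sequence of the assembly of the files (Wm82.a2.v1) was used. Leaves hold several cell types, and a region open in fewer cells cannot be told apart from a region less open in every cell.

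The 18 library lists held 7668 (ZT0 L) to 21804 (ZT12 M) peaks. The background coverage of the libraries ran from 0.39 (ZT8 R) to 0.784 (ZT12 R) fragments per base, and at ZT8 alone the replicates ran from 8143 to 16939 peaks. Shares of regions with a peak are therefore given from all peaks and from the same number of peaks in each list, the 7668 with the highest −log10 q.

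The merged lists at these 4 times chose the members, and those lists were made from the same libraries, so the values at ZT8, ZT12, ZT20 and ZT0 describe the members and test nothing. Around dusk, a peak of the library lay in 65.7% (ZT8 L), 62.9% (ZT8 M) and 21.4% (ZT8 R) of the members. At ZT12 the shares were 29.4% (L), 81.5% (M) and 41.6% (R). Around dawn they were 10.6% (L), 5.04% (M) and 5.22% (R) at ZT20, and 3.24% (L), 7.43% (M) and 4.73% (R) at ZT0. No dawn library reached the lowest dusk library, although the dusk libraries themselves spread 3.8-fold, and the lowest of them, ZT8 R and ZT12 L, were also the dusk libraries with the fewest peaks. The mean over the 6 libraries was 50.4% ± 23.3 (SD, n = 6) around dusk and 6.04% ± 2.60 (SD, n = 6) around dawn. Among all union regions the same libraries had a peak in 36.8% ± 11.7 (SD, n = 6) and 27.9% ± 6.82 (SD, n = 6).

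With the same number of peaks in every list the spread between replicates became much smaller. The share of members with a peak was then 18.3% ± 1.64 in the libraries of ZT8 and 15.5% ± 1.14 in those of ZT12 (SD, n = 3 each), against 2.64% ± 0.581 in those of ZT20 and 2.66% ± 0.531 in those of ZT0. The same share over all union regions stayed between 19.6% and 21.0% in the dusk libraries. Once only the stronger peaks counted, the share of members lay above that of all regions in 1 of the 3 ZT8 libraries and in 0 of the 3 ZT12 libraries. In the mirror set the shares were 30.3% ± 1.16 at ZT20 and 31.1% ± 1.75 at ZT0 (SD, n = 3 each). The rules chose both sets at these times, and the 7668 peaks kept were all those of ZT0 L but a smaller part of the longer lists, so the sets are not compared there.

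**Figure D1:**
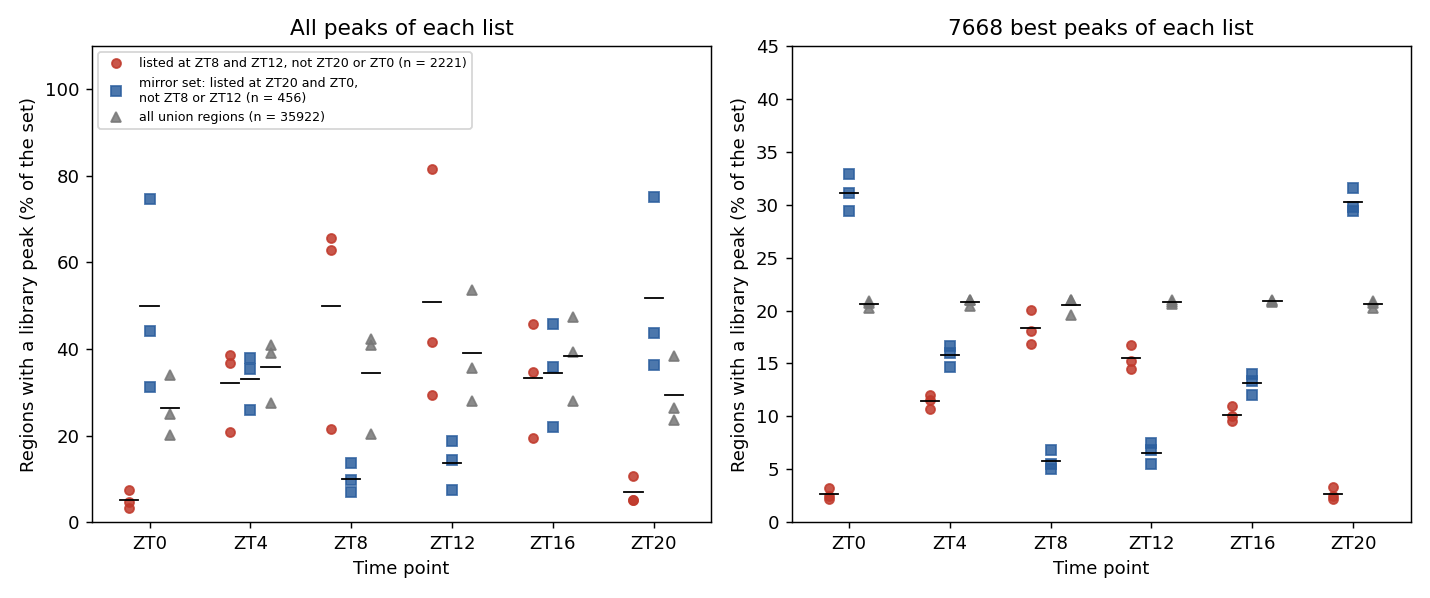
Share of regions with a library peak (y axis, % of the set) at each time point (x axis) for the members (red circles), the mirror set (blue squares) and all union regions (grey triangles), from all peaks (left) and from the 7668 best peaks of each list (right). Each point is a library and the black bars are means of 3. The members were highest at ZT8 and ZT12 and lowest at ZT20 and ZT0, which the rule fixed. At ZT4 and ZT16 they lay close to the mirror set in the left panel and below it in all 6 libraries in the right panel.

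At ZT4 and ZT16, the times that the rule left free, the members could be tested. At ZT4 a peak lay in 38.5% (L), 20.8% (M) and 36.8% (R) of the members. At ZT16 the shares were 34.8% (L), 45.8% (M) and 19.4% (R). These ranges overlapped with each other and with those of the dusk libraries, and all 6 values lay above the highest dawn library. The rule fixed the shares around dusk and dawn, so the place of the free times between them tests nothing. Over all union regions the ZT4 and ZT16 libraries had a peak in 27.6% to 47.5%, and the dawn libraries in 20.3% to 38.3%. Over 3 libraries each, ZT4 had a mean of 32.1% ± 9.76 and ZT16 one of 33.3% ± 13.2 (SD). The difference of 1.23 percentage points was smaller than the spread between replicates, with p = 1 in a two-sided exact permutation test of 3 against 3 libraries, which cannot go below 0.1. At both times the members were called less often than all union regions in every library, by 1.74 to 8.69 percentage points at ZT16 and by 2.27 to 6.79 at ZT4. All union regions include the 6538 regions in all 6 lists, which the rule keeps out of the members. This difference is therefore fixed by the rule in part.

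To set the times beside each other within each library, the members with a peak were divided by the regions of the mirror set with a peak in the same library. On the log2 scale this ratio was 2.41 (L), 1.97 (M) and 2.24 (R) at ZT4, and 2.24 (L), 2.28 (M) and 2.11 (R) at ZT16. For scale, the sets themselves stand in a ratio of 2.28 on the log2 scale, so that a library near that value had a peak in equal shares of both sets. The mean log2 ratio was 2.21 ± 0.22 at ZT4 and 2.21 ± 0.09 at ZT16 (SD over 3 libraries each), and the difference had an exact permutation p of 0.9. Both p-values were 1 after Benjamini-Hochberg adjustment over the 2 comparisons. The ratio still moved with the number of peaks, being lowest at both times in the library with the fewest (ZT4 M and ZT16 R). With the same number of peaks per list it was 1.76 to 1.87 at ZT4 and 1.80 to 2.02 at ZT16, below 2.28 in all 6 libraries. From all peaks the ratio was 3.81 to 5.05 in the dusk libraries and −1.04 to −0.52 in the dawn libraries, which the rules of both sets fix.

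From all peaks, the members and the mirror set had nearly the same share of called regions at ZT4 (32.1% and 33.0%) and at ZT16 (33.3% and 34.5%). Within a library the members were 5.03 points below to 3.23 points above the mirror set at ZT4, and 0.088 to 2.52 points below it at ZT16. With the same number of peaks per list, members lay below the mirror set in all 6 libraries, at 11.4% ± 0.663 against 15.8% ± 1.00 for ZT4 and 10.2% ± 0.708 against 13.2% ± 1.00 for ZT16 (SD, n = 3 in each).

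The merged lists gave the same picture of the times on either side, ZT4 before and ZT16 after the dusk pair. Of the 2221 members, 1183 (53.3%) were also in the ZT4 list, beside 51.9% of all union regions, and 1199 (54.0%) were in the ZT16 list, beside 54.3%. A class of 756 members (34.0%) was in both lists, so that it was listed without a break from ZT4 to ZT16. Another 443 (19.9%) were in the ZT16 list only, 427 (19.2%) were in the ZT4 list only, and 595 (26.8%) were in neither. Over all union regions these classes made up 35.1% (both lists), 19.1% (ZT16 only), 16.7% (ZT4 only) and 29.0% (neither). These lay close to the shares of the members. The union was made from the same lists, so the shares of all regions are fixed in part. The 5401 union regions (15.0%) in none of the ZT8, ZT12, ZT20 and ZT0 lists must be in the ZT4 or the ZT16 list. Another 6538 regions were in all 6 lists. The likeness to all regions, here and for each list alone, therefore tests nothing about the members.

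These classes differed in how many dusk libraries carried them, although the ZT4 and ZT16 lists did not choose the members. A peak in at least 4 of the 6 dusk libraries was present in 42.7% of members listed at both ZT4 and ZT16, in 26.9% of those listed at ZT4 only, in 24.2% of those listed at ZT16 only and in 12.6% of those listed at neither. Dawn peaks followed the same order, being present in 32.0%, 24.8%, 22.3% and 16.1% of the classes, respectively. Median width was 487 bp in members listed at both times, 438 bp and 440 bp in those listed at ZT4 only and at ZT16 only, and 390 bp in those listed at neither. The members listed longest were thus also the widest and had library peaks most often both around dusk and around dawn. The part of width in these counts was not tested. The same shares over all union regions of each class are not given, so this order cannot be called particular to the members.

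Among the single libraries of the free times, 172 members (7.74%) had a peak in 3 of 3 ZT4 libraries and 162 (7.29%) in 3 of 3 ZT16 libraries. Both shares lay below those of all union regions, 17.7% and 19.8%. Members with no peak at all numbered 850 (38.3%, against 42.3% of all regions) at ZT4 and 813 (36.6%, against 39.6%) at ZT16. The shares without a peak lay near those of all regions, which are set in part by how the union was made, so this likeness tests nothing. The rule takes out every region listed at ZT20 or ZT0, among them the 6538 regions in all 6 lists, so the low shares with 3 of 3 peaks are fixed by it in part. A set of 368 members (16.6%) had library peaks at ZT8 and ZT12 and in no library of the other 4 times, against 2.12% of all regions. Every member had a library peak at both ZT8 and ZT12, and the rule reads the dawn lists, so this difference too is fixed in part.

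The library support of the members around dusk was thin for most of them. Each had a peak in at least 1 library at ZT8 and at least 1 at ZT12, and 829 members (37.3%) had exactly 1 at each time. A further 772 (34.8%) had a peak in 3 of the 6 dusk libraries, 399 (18.0%) in 4, 177 (7.97%) in 5 and 44 (1.98%) in 6. In the 6 dawn libraries, 1678 members (75.6%) had no peak, against 40.0% of all union regions, 389 (17.5%) had 1 and 154 had more. The rule reads the dawn lists, so this difference is fixed by it in part.

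**Figure D2:**
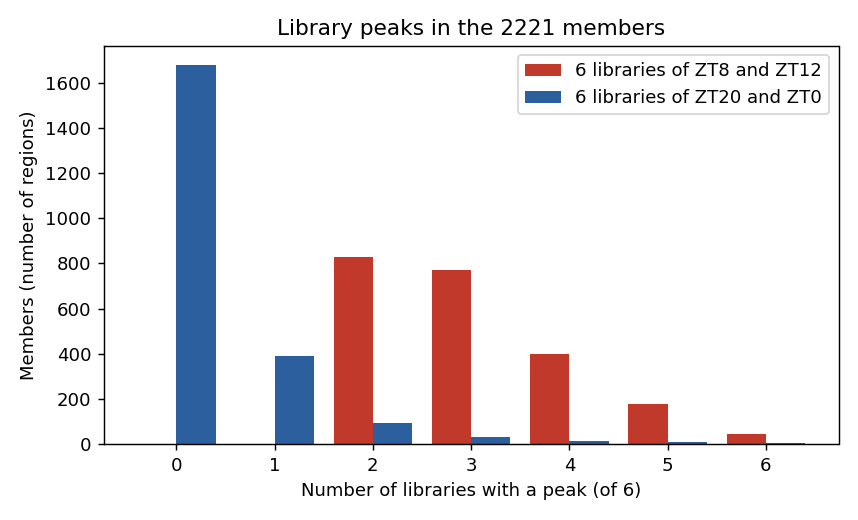
Number of members (y axis) by the number of libraries with a peak (x axis, 0 to 6), for the 6 libraries of ZT8 and ZT12 (red) and the 6 libraries of ZT20 and ZT0 (blue). Most members had a peak in 2 or 3 dusk libraries and in no dawn library, 44 had one in all 6 dusk libraries and 6 had one in all 6 dawn libraries.

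A peak in at least 4 dusk libraries and in no dawn library was found in 389 members (17.5%), against 1.30% of all union regions. Leaving out ZT12 M lowered this count to 135, ZT8 L to 162, ZT8 M to 181, ZT12 R to 213 and ZT12 L to 256, with 4 of the 5 remaining dusk libraries asked for. The corresponding count in the mirror set, at least 4 dawn libraries and no dusk library, was 70 of 456 (15.4%, against 0.234% of all regions). Only 17 members (0.765%) had a peak in all 6 dusk libraries and none in the 6 dawn libraries, and 18 of all union regions did (0.0501%). In the mirror set 7 regions (1.54%) met the opposite condition (9 of all regions, 0.0251%). The rules read the merged lists of these times. The excess of both sets over all regions in these counts is therefore fixed by the rules in part. The count of 17 rose to 58 without ZT8 R, to 45 without ZT12 L and to 35 without ZT12 R, with a peak in all remaining dusk libraries asked for. It could not fall, because leaving out a library loosens the condition.

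The peaks of the members stood in the weaker part of their lists, as did those of the mirror set outside the dusk libraries. Ranked by −log10 q within a list, with 0% the strongest peak, the median peak of a member stood at 54.1% (ZT12 R) to 68.6% (ZT12 L) of the list in the dusk libraries, while the median peak over all union regions stood at 40.4% to 47.6%. At most 0.501% of the member peaks of a dusk library were among the strongest 10% of the list. At ZT4 and ZT16 the median member peak stood at 57.4% to 68.6%, in the same range as around dusk. In the dawn libraries the few member peaks were weaker still, at 71.1% to 79.5%. The mirror set stood at 55.6% to 66.1% in the dawn libraries, its own times, much as the members did around dusk. At ZT4 and ZT16 it stood at 52.2% to 64.8%, ahead of the members in each of the 6 libraries. In the dusk libraries, where 7.02% to 18.9% of the mirror set had a peak, its median place ran from 12.4% (ZT8 R) to 60.3% (ZT8 M).

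In fragments the differences were small. The median number of fragments over the summit, the highest point of a peak, was 6 (ZT8 R) to 9 (ZT12 M) in member peaks of the dusk libraries and 8 to 11 in all regions. It was 7 to 9 in member peaks at ZT4 and ZT16, and 6 to 7.5 around dawn. The weakest peaks that any list held had 4 or 5 fragments, so that a typical member peak stood only a few fragments above the level at which peaks were no longer listed. A member without a peak in a library was therefore not shown to be closed there at this depth.

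**Figure D3:**
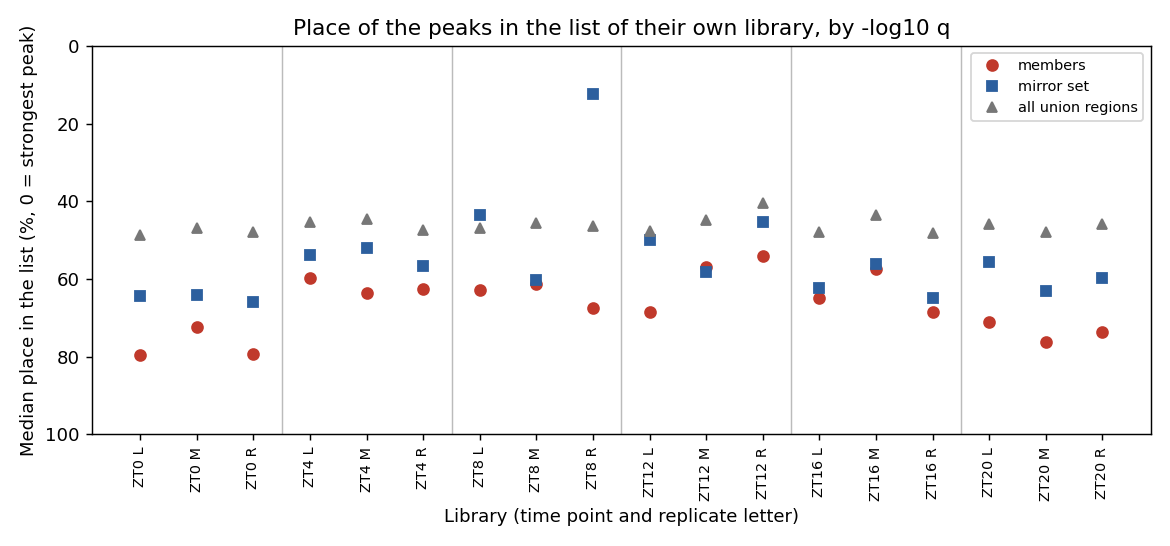
Median place of the peaks in the list of their own library (y axis, 0% is the strongest peak by −log10 q, axis reversed) in each of the 18 libraries (x axis), for peaks in members (red circles), in the mirror set (blue squares) and in all union regions (grey triangles). Members stood behind all union regions in every library and were weakest in the ZT20 and ZT0 libraries, at 71.1% to 79.5%.

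A group of 10 regions is given with its values. They were the members with a peak in all 6 dusk libraries and none in the 6 dawn libraries whose worst rank among the 6 dusk lists was best. Coordinates are those of the Wm82.a2.v1 assembly. Values are fragments at the summit for replicates L, M and R.

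The region on chromosome 3 from 136557 to 137080 (524 bp) had 14, 14 and 11 fragments at ZT8, and 11, 19 and 12 at ZT12. At ZT4 it had 6 (L) and 11 (R), and at ZT16 18 (M) and 10 (R), with no peak in ZT4 M and ZT16 L. Its worst rank among the dusk lists was 44.8%, and it was the only 1 of the 10 whose peaks were within the 7668 best of all 6 dusk lists. It lies near the start of the chromosome, 0.299% of the way along it.

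On chromosome 17, the region from 41293433 to 41294096 (664 bp) had 8, 7 and 7 fragments at ZT8, and 9, 9 and 13 at ZT12. It also had a peak in 2 libraries at ZT4 (9 and 7 fragments) and 2 at ZT16 (10 and 8), which reached the dusk level. The merged lists held it from ZT4 to ZT16, although ZT4 M and ZT16 M had no peak.

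On chromosome 4, the region from 49719838 to 49720164 (327 bp) had 7, 7 and 6 fragments at ZT8, and 8, 21 and 7 at ZT12. It had no peak in any library of the other 4 time points and was in neither the ZT4 nor the ZT16 list, the only such region among the 17. It was the narrowest of them, and 1 library, ZT12 M, stood far above the others.

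On chromosome 11, the region from 8768990 to 8769725 (736 bp) had 8, 9 and 8 fragments at ZT8, and 8, 13 and 12 at ZT12. It also had a peak in every library at ZT4 (8, 8 and 10 fragments) and at ZT16 (8, 8 and 8). It was the only 1 of the 2221 members with a peak in all 12 libraries from ZT4 to ZT16 and in none of the 6 dawn libraries, and the only 1 of all union regions (0.00278%).

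The other region on chromosome 11, from 24773611 to 24774142 (532 bp), had 15, 17 and 13 fragments at ZT8, and 11, 11 and 11 at ZT12. Every ZT8 library was above every ZT12 library. It had no peak at ZT4 and a single one at ZT16 (M, 13 fragments).

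On chromosome 12, the region from 12352594 to 12353570 (977 bp) had 22, 17 and 11 fragments at ZT8, and 8, 17 and 7 at ZT12. It had a peak in each ZT4 library (6, 11 and 9 fragments) and in 1 at ZT16 (M, 6 fragments). The other region on that chromosome, from 35237988 to 35239089 (1102 bp, the widest of the 17), had 9, 8 and 9 fragments at ZT8, 10, 14 and 11 at ZT12, 10, 9 and 13 at ZT16, and 8 (L) and 7 (R) at ZT4. Its fold over the local background was 4.78 to 5.40 at ZT8 and 4.64 to 6.49 at ZT16, so these times overlapped.

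The region on chromosome 6 from 3091577 to 3092518 (942 bp) had 10, 10 and 9 fragments at ZT8, and 7, 11 and 7 at ZT12. Peaks of 6 or 7 fragments were present in all ZT4 libraries and in L and M of ZT16, all below the ZT8 values. On chromosome 9, the region from 3415775 to 3416207 (433 bp) had 7, 11 and 5 fragments at ZT8, 7, 17 and 8 at ZT12, and 9, 13 and 9 at ZT16, with 1 peak of 4 fragments at ZT4 (L). The region from 50137809 to 50138211 (403 bp), 99.9% of the way along the same chromosome, had 8, 7 and 5 fragments at ZT8, and 8, 10 and 9 at ZT12. It had 8, 6 and 7 fragments at ZT4, and 11 (L) and 10 (M) at ZT16, so that its highest value was at ZT16.

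**Figure D4:**
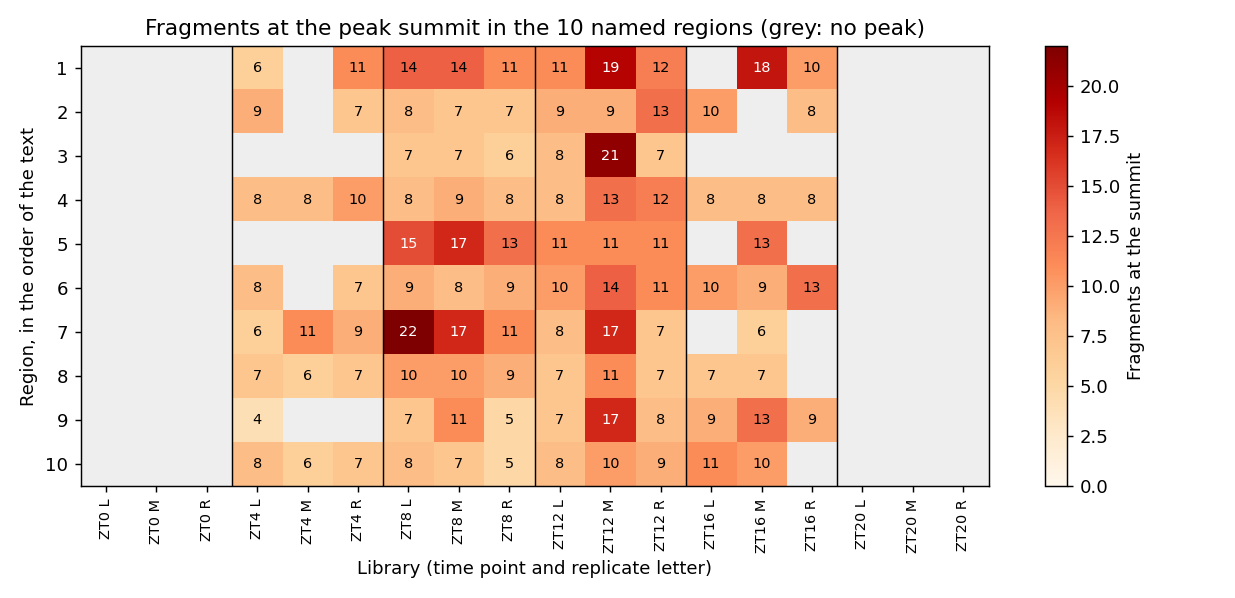
Fragments at the peak summit (number and colour) in the 10 named regions (rows, numbered by their worst rank among the dusk lists) and the 18 libraries (columns, grey where the library had no peak). From row 1 the regions are those on chromosomes 3, 17, 4, 11 (starting at 8768990), 11 (24773611), 12 (35237988), 12 (12352594), 6, 9 (3415775) and 9 (50137809). Columns of ZT0 and ZT20 are empty by the choice of the regions, and row 4 has a peak in every library from ZT4 to ZT16.

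All 17 regions with that pattern lay on 13 of the 20 chromosomes and were 327 to 1102 bp wide, with a median of 584 bp. Of the 17, 12 were in both the ZT4 and the ZT16 list, 13 in the ZT4 list and 15 in the ZT16 list. At ZT4, 6 of them had a peak in 3 of 3 libraries and 4 in none. At ZT16, 3 had a peak in 3 of 3 libraries and 2 in none. The 1 further union region with the same library peaks, on chromosome 10 from 49918849 to 49919324, was in the ZT4 and ZT16 lists but in neither the ZT8 nor the ZT12 list, so the rule missed it in spite of its 6 dusk peaks. With the same number of peaks per list 2 members had the strict pattern, the chromosome 3 region above and a region on chromosome 17 from 2994106 to 2994786, which had 1 weaker peak at ZT0.

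The 3 widest members differed from those regions. The region on chromosome 8 from 47518561 to 47520235 (1675 bp) had a peak in 2 of 3 ZT0 libraries and 3 of 3 ZT20 libraries, although no dawn list held it. The region on chromosome 17 from 5769839 to 5771466 (1628 bp) had a peak in 2 at ZT0 and 1 at ZT20. The region on chromosome 11 from 26172102 to 26173670 (1569 bp) had a peak in all 6 dawn libraries. Members with a dawn peak were wider in general, with a median of 535 bp against 408 bp for members without.

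In width the members lay above the average region, with a median of 440 bp (quartiles 339 and 562 bp, range 175 to 1675 bp) against 379 bp for all union regions and 428 bp for the mirror set. A union region joined over more lists is wider by construction, and a member is in at least 2 lists. Regions of 1000 bp or more made up 2.16% of the members, 3.20% of all union regions and 6.14% of the mirror set.

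The summits of the peaks lay at nearly the same place from time to time. Between a ZT8 and a ZT12 library with a peak in the same member, the summits were a median of 59 bp apart, and between libraries of the same time 62 bp. Between ZT4 and the dusk libraries the distance was 59 bp, and between ZT16 and the dusk libraries 55 bp. These distances between times and between replicates were close to each other. Distances over all union regions were 42 to 44 bp in these comparisons. The few peaks in dawn libraries lay farther off, a median of 85 bp from the dusk summits, and 26.3% of them were more than 200 bp away, against 9.70% over all union regions. Within members of under 600 bp the median was 49 bp between libraries of the same time, 50 bp from ZT8 to ZT12, 52 bp from ZT4 and 47 bp from ZT16 to the dusk libraries, and 60 bp from the dawn libraries.

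Members were spread over all 20 chromosomes. Their share of the union regions of a chromosome ran from 5.45% on chromosome 12 (Wilson interval 4.44 to 6.67%) to 7.20% on chromosome 17 (6.12 to 8.45%), and these intervals overlapped. Most members lay towards the chromosome ends, with 76.9% (75.1 to 78.6%) in the outer 25% at either end, against 73.3% of all union regions (72.9 to 73.8%) and 74.1% of the mirror set (69.9 to 77.9%). With each chromosome cut into 10 equal bins, bins 5 and 6 held 3.11% and 3.29% of the members and 4.58% and 3.90% of all regions. Regions are not replicates, and these shares are descriptions.

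**Figure D5:**
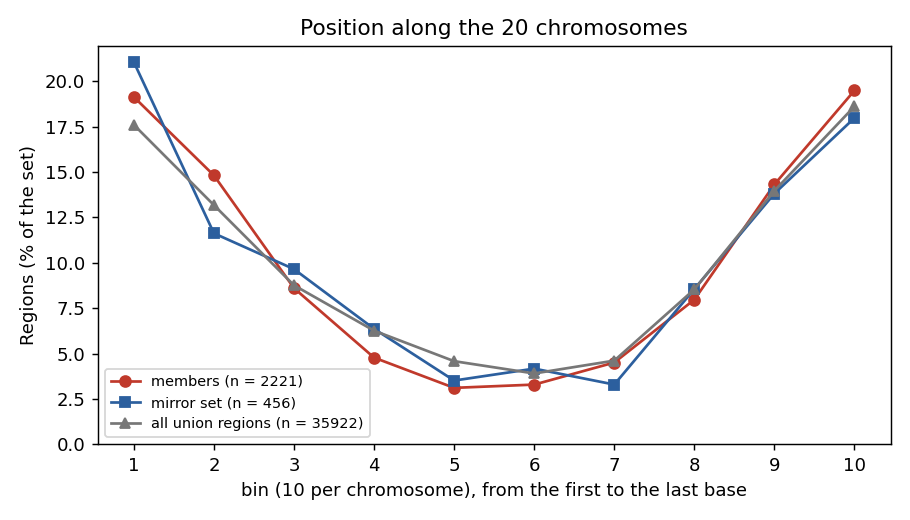
Share of the regions (y axis, % of the set) in each of 10 equal bins along the chromosome (x axis, from its first to its last base, all 20 chromosomes together) for the members (red), the mirror set (blue) and all union regions (grey). The 3 curves follow each other, with 19.1% and 19.5% of the members in the first and the last bin.

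Members rarely lay side by side. The nearest other member was a median of 88400 bp away, and 102 members (4.59%) had another within 5000 bp. To the nearest union region of any kind the gap was 4858 bp, against 4504 bp over all union regions and 2680 bp in the mirror set. A region listed at ZT20 or ZT0 lay within 500 bp of 85 members (3.83%) and within 5000 bp of 31.8%. In the mirror set, a region listed at ZT8 or ZT12 lay within 500 bp of 7.89% and within 5000 bp of 53.7%. The ZT8 and ZT12 lists were longer than those of ZT20 and ZT0, and the part of list length in this difference was not tested. The megabase with the most members, chosen after its count was seen, was on chromosome 18 from 55000001 to 56000000, with 13 members among 87 union regions (14.9%).

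The threshold of the rule is the presence of a region in 4 lists, and the nearest regions outside it fail in 1 list. There were 2009 regions that failed only because they were also in the ZT20 list and 1390 only because of the ZT0 list. Another 5133 failed for want of the ZT8 list and 3568 for want of the ZT12 list. Regions that were also listed at ZT20 had a peak in 1.78 libraries at ZT8, 1.84 at ZT12 and 1.58 at ZT20 on average, whereas members had 1.50, 1.52 and 0.208. Just inside the rule, the smallest overlap of a member with the ZT8 list was 151 bp and with the ZT12 list 159 bp, and the lists covered a median of 81.4% (ZT8) and 82.9% (ZT12) of the region.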

How the data were processed

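Per the labels and the study's methods, the authors aligned paired reads with Bowtie2 to Wm82.a2.v1, keeping up to 10 alignments, so that reads of repeated sequence can count at several places. Peaks were then called by MACS2, both in the single libraries, sampled down to a common depth, and on the pooled reads of each time point. Merged regions had to be found in single replicates too, and regions of the highest and of low signal were removed. The command named the paired-fragment mode together with a shift and an extension of reads. MACS2 does not use either in that mode, so heights here are whole fragments, not cut sites. The deposited library lists give positions, a fold (ratio) of the summit over its local background, and the caller's −log10 p and −log10 q. The deposited merged lists give positions only, without replicates.

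Regions were joined and matched with Python 3.11.15, numpy 2.4.6, pandas 2.3.3 and scipy 1.17.1, and plots used matplotlib 3.10.9. A library peak counted for a region from an overlap of 1 bp. Fragments at the summit were recovered from fold and −log10 p, which MACS2 derives from the fragments and the local background. A whole number of fragments met both (within 0.005) for 99.2% or more of the peaks of each library with a −log10 p under 300. Numbers moved by 0.5 met them for 0%. They were tried only beside the whole number already chosen as the best match, so this 0% was largely fixed and tests nothing. Peaks with more than 1 solution (up to 9.28%) have no fragment value. Chromosome lengths were taken as the farthest end of any region or peak. Steps were tested on simulated data. Of 30 samples, 18 libraries were used. P-values measure the spread between these libraries, and intervals cover counting error only. The smallest exact p was 0.1 for 3 against 3 libraries.

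The members and lists were chosen with earlier results of these data known. Named regions were the 10 members with a peak in 6 of 6 dusk and 0 of 6 dawn libraries with the best worst rank, the 3 widest, and counts of the nearest failures. Regions of clock genes, gene lists, sequences and motifs were to be described too, but were not analysed here without an annotation of the build. Alternatives were the same number of peaks per list, only peaks of −log10 q 5 or more, only the upper 50% of a list, 50% overlap, joining within 150 bp or only on overlap, and each library left out.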

Additional observations from a re-analysis of the deposited data

Results flagged for a closer look

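Although no dawn list held them, 6 members had a library peak in all 6 dawn libraries. They are a signal outside the merged lists that the rule read. They lay on chromosome 1 from 2455524 to 2457023, chromosome 5 from 41266316 to 41267659, chromosome 8 from 19809055 to 19810431, chromosome 9 from 39802572 to 39803155, chromosome 11 from 26172102 to 26173670 and chromosome 15 from 7964791 to 7966132. Their median width was 1360 bp, against 440 bp for all members, and only the region on chromosome 9 was under 1000 bp (584 bp). Ranked within their lists, the dawn peaks had medians of 46.0% (chromosome 9), 54.2% (chromosome 5), 58.4% (chromosome 8), 60.3% (chromosome 11), 76.7% (chromosome 1) and 78.2% (chromosome 15), with single peaks down to 92.2% (chromosome 1). In the chromosome 9 region they held a median of 9 fragments (6 to 11), against 14 fragments (7 to 30) in the dusk libraries. In the chromosome 5 region the dawn median was 13.5 fragments and the dusk median 13. Altogether 14 members had a peak in 5 or 6 dawn libraries, and 10 of them were 1000 bp or wider, among 48 members of that width. In the mirror set 16 regions had a peak in all 6 dusk libraries, with a median width of 401 bp. The same counts over all union regions are not given, so the counts of 6 and 14 members cannot be judged against them. Why the merged lists lacked these regions was not tested.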

How the results depend on the processing

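The count of members was 2221 as reported, 1838 with 50% of the region covered by both dusk lists, 2226 with regions closer than 150 bp joined, 2221 without joining touching regions and 1678 without members that had a dawn library peak. It was 463 with at least 2 of 3 library peaks asked for at ZT8 and at ZT12, an alternative chosen after seeing the data. The 17 members with 6 dusk and 0 dawn libraries became 2 with an equal number of peaks, 2 at −log10 q 5 or more, 1 with the upper 50% of each list and 1 with 50% overlap. With a library left out they became 17 to 58, a change that can only raise the count because the condition is looser. The 389 members with at least 4 dusk libraries, a count chosen after seeing the data, became 57, 66, 59 and 135 in the same order, and 135 to 438 with a library left out. The 70 regions of the mirror set became 35, 17, 11 and 18. With an equal number of peaks, the counts were 57 of the 2221 members and 35 of the 456 regions of the mirror set. The rules chose both sets at these times, and the peaks kept were a smaller part of the longer lists. The sets are therefore not compared on these counts. Shares of all union regions under these alternatives are not given. The drops therefore cannot be called particular to the members. The mean dusk minus dawn difference in called members was 44.4 points, 14.3 with an equal number of peaks, 19.2 at −log10 q 5 or more, 32.9 with 50% overlap and 38.2 to 50.2 with a library left out.

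The ZT16 minus ZT4 difference of 1.23 points was −1.26 with an equal number of peaks (exact permutation p = 0.2), −0.034 as a ratio to the share of all union regions called (p = 0.7), 4.11 at −log10 q 5 or more, 0.225 with the upper 50% and 1.95 with 50% overlap, and ran from −4.99 to 8.18 with a library left out (−4.38 without ZT4 M and −4.99 without ZT16 M). The log2 ratio of members to the mirror set differed by 0.00 as reported, by 0.07 to 0.38 under the same 4 alternatives, and by −0.12 to 0.10 with a library left out (−0.12, −0.01 and −0.03 without ZT4 M, ZT16 L and ZT16 M). No exact p of these fits was below 0.2, and 3 against 3 libraries cannot go below 0.1. With the letter as a replicate block the differences were 1.23 points and 0.00, each with a p of 1 in an exact sign-flip permutation test, which cannot go below 0.25 with 3 pairs. The letters did not pair the libraries, with correlations of the deviations of −0.021 (L), −0.037 (M) and 0.005 (R). The share of members at chromosome ends was 38.6% in the outer 10% (36.2% of all regions) and 76.5% in the 17 strict members, and the median width was 584 bp in those 17 and 442 bp with regions closer than 150 bp joined.

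Member peaks held a median of 6 to 9 fragments around dusk and the weakest listed peaks 4 or 5. The number of peaks did not follow background coverage (21804 peaks at 0.495 fragments per base in ZT12 M, 9518 at 0.609 in ZT20 R), and the part of depth in the counts was not tested.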
